A study of Vitis vinifera with 156 samples.

Results

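Dormant grapevine buds held at a constant 7 °C were set against buds held at a constant 11 °C through 69 days of cold treatment. The members are all libraries that the labels place at 7 °C or at 11 °C in both phases of the study, 24 at 7 °C and 24 at 11 °C. These 48 libraries make 16 of the 52 groups of the series, each of 3 libraries. Both temperatures were sampled in the first weeks on days 7, 13, 20 and 26 and later on days 34, 41, 55 and 69, and all 48 libraries carry the same library set label, First. The tissue was the bud of Vitis vinifera cultivar Cabernet Sauvignon, a wine grape, on cuttings kept in growth chambers, and no other treatment was given to either group. Other arms of the series enter below: constant 2, 4 and 22 °C, and a pair of fluctuating arms. That pair was kept at 7 °C or at 11 °C until day 26 and then moved together to a fluctuating 7 °C. The fluctuation had a mean of 7 °C and swung 5 °C to either side each day. The labels do not say whether replicates came from separate vines, cuttings or chambers, so p-values measure the spread between these libraries.

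Buds of temperate woody plants pass the winter in dormancy. In endodormancy the bud itself holds back growth, and a long stay in the cold releases it. The same low temperatures bring about cold acclimation, in which a bud gains the ability to survive freezing. Genes of the cold response are known from many plants to react to the depth and to the length of the cold, so a pair of chilling temperatures a few degrees apart, followed for weeks, shows how finely bud RNA follows temperature.

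RNA was read by a method that counts messenger RNA near its 3′ end, and the values are whole-number read counts per gene. The table numbers its 42413 lines without pairing them with gene identifiers, so genes are called here by line number, counted from 1 after the header. No gene function, position or pathway is given, and no defining markers of bud tissue could be looked up. Totals ran from 50271 to 4190778 counts at 7 °C (median 1932880) and from 27485 to 3085710 at 11 °C (median 2282212). One library at 7 °C (day 13, replicate 3) and 3 at 11 °C (day 7, replicates 1 and 3, and day 41, replicate 1) held fewer than 1000000 counts. Day 7 at 11 °C therefore rests on 1 deep library, and values that rest on these libraries are followed by those of the deep libraries, the ones with at least 1000000 counts. The libraries of 7 °C and 11 °C did not differ detectably in depth or make-up. The share of counts in the 10 highest genes averaged 36.4% ± 5.32 at 7 °C and 35.4% ± 5.46 at 11 °C (SD, n = 24 each). After thinning each library to 1000000 counts, 14270 ± 1586 genes were detected at 7 °C (SD, n = 23) and 14484 ± 667 at 11 °C (n = 21). The lowest were 9182 in replicate 3 of day 55 and 10965 in replicate 1 of day 7, both at 7 °C, against a lowest of 13620 at 11 °C. Counts of genes without day 7 and without day 55 are given below. A permutation test within days, two-sided with 100000 resamples, gave adjusted p-values of 0.794 for the total count, that share and the number of genes. The libraries of 7 °C sat in plate columns 4 to 7 and those of 11 °C in columns 8 to 11, so plate position and temperature cannot be told apart. A letter of unstated meaning follows the sample number in the names of 10 libraries at 7 °C and 3 at 11 °C.

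Over the 8 days, 555 genes had more RNA at 7 °C than at 11 °C and 792 had less. These 1347 genes were 11.2% of the 12055 genes tested (4.6% higher and 6.57% lower), called by edgeR's quasi-likelihood test with day as a factor at an adjusted p under 0.05. The differences were small. Called genes had a median absolute log2 fold change of 0.74 with a median standard error of 0.20, 325 of them differed at least 2-fold, and 6 at least 4-fold. The day means lay on the same side at all 8 days for 193 of the 555 higher genes and 248 of the 792 lower genes, and at 7 or 8 days for 458 and 588. Together the higher genes held 11.7% ± 3.14 of all counts at 7 °C and 7.5% ± 3.0 at 11 °C (SD, n = 24 each). The lower genes held 5.64% ± 0.84 at 7 °C and 8.73% ± 2.29 at 11 °C. These shares describe genes chosen for differing and carry no test. In the 44 libraries of at least 1000000 counts 1805 genes were called, 779 higher and 1026 lower.

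How many genes were called varied most with 1 set of libraries. Without the libraries numbered replicate 2, the test called 66 genes, 26 with more and 40 with less RNA at 7 °C. Without replicate 1 there were 776, and without replicate 3 there were 682. Of the 1347 genes, 1330 could be tested without replicate 2. Their median absolute log2 fold change was 0.70 without replicate 2, against 0.74 with all libraries, and their median standard error was 0.27 against 0.20. The replicate 2 libraries were the deepest, with a median of 2516230 counts, against 1915476 for replicate 1 and 1784540 for replicate 3. All libraries under 1000000 counts are of replicate 1 or 3. Without replicate 2, day 7 at 11 °C was left with libraries of 57968 and 27485 counts only. Leaving out replicate 2 thus also raised the weight of the shallow libraries. The common biological coefficient of variation was 0.51 without them, against 0.46 with all 48 libraries. What their depth contributed was not tested. In the 35 libraries whose names carry no letter, 597 higher and 750 lower genes were called of 12942. That total equals the one over 48 libraries, but 883 genes were in both calls.

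**Figure D1:**
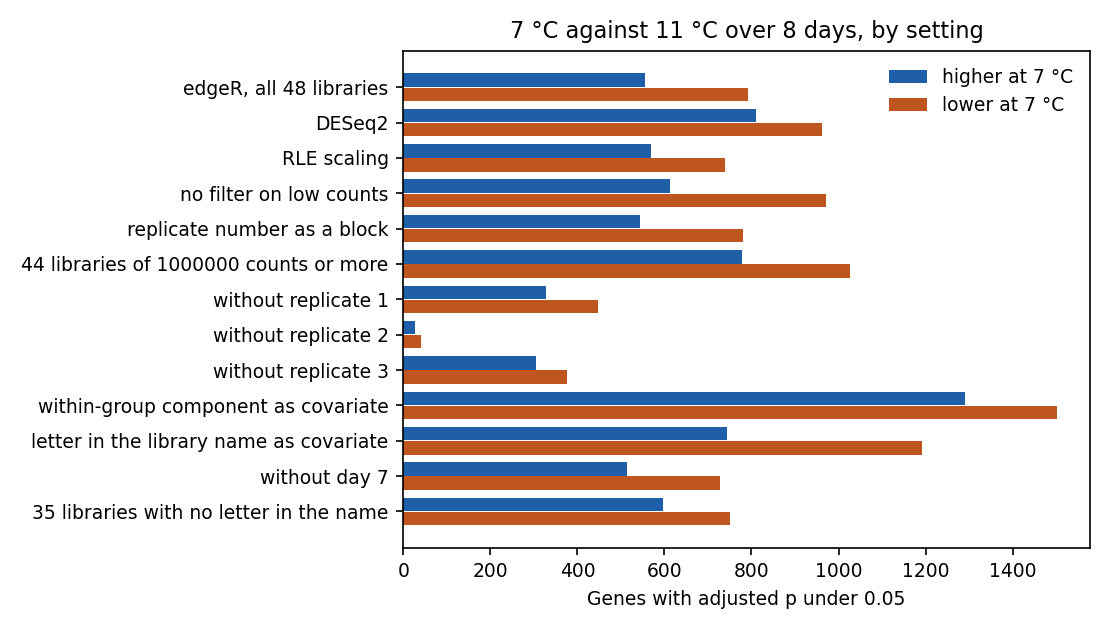
Genes with an adjusted p under 0.05 between 7 °C and 11 °C over the 8 days, in each of 13 settings; blue bars count genes higher at 7 °C and orange bars genes lower at 7 °C. The bars stand at 555 and 792 with all 48 libraries, shrink to 26 and 40 without replicate 2, and reach 1291 and 1502 with a component of the within-group variation as a covariate. That component was taken from the counts of the deep libraries and fitted in them, and they gave 779 and 1026 without it.

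The 4 genes described by name were taken by rule. A gene had to be called, to average 10 or more counts per 1000000 counts of the library (CPM) over the 48 libraries, and to have its day means on the same side at all 8 days. Of the 365 genes that met this, those named are the 2 that rose most and the 2 that fell most at 7 °C. Gene 10052 had a lowest, median and highest level of 1.13, 31.9 and 99.5 CPM at 7 °C, against 0, 10.2 and 48.9 CPM at 11 °C. The ranges overlapped. The library at 0 is the 11 °C library of day 7 with 27485 counts in all, and the 99.5 CPM came from the shallow library of 7 °C, the deep ones reaching 75.2 CPM. Its level followed the day as well as the temperature. It averaged 62.9 ± 6.64 CPM on day 7 and 66.7 ± 10.1 CPM on day 20 at 7 °C, against 11.1 ± 9.66 and 33.2 ± 13.2 CPM at 11 °C (SD, n = 3 each). The deep 11 °C library of day 7 was at 16.2 CPM. On day 69 it averaged 7.77 ± 9.0 CPM at 7 °C and 0.832 ± 0.572 CPM at 11 °C, the latter from 1, 3 and 2 counts. Both temperatures thus ended far below their levels of day 20. The log2 fold change was 1.43 ± 0.24 (SE; edgeR adjusted p = 9.66e-05).

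Gene 37451 had a lowest, median and highest level of 0, 37.1 and 62.5 CPM at 7 °C, against 2.16, 11.9 and 72.8 CPM at 11 °C. The highest value, 72.8 CPM, came from a shallow library, and the deep libraries of 11 °C reached 30.9 CPM. The values at 0 are replicate 3 of day 13, a shallow library, and replicate 3 of day 55, a deep one. It averaged 49.05 ± 5.90 CPM on day 7 and 36.4 ± 26.4 CPM on day 69 at 7 °C, and 38.03 ± 30.3 CPM on day 7 and 3.68 ± 2.27 CPM on day 69 at 11 °C. The deep 11 °C library of day 7 was at 24.1 CPM, below the 3 libraries of 7 °C, which were at 45.1, 55.8 and 46.2 CPM. The difference of its late and early contrasts, 1.15 ± 0.47 (SE), did not pass (edgeR adjusted p = 1). Over all days its log2 fold change was 1.40 ± 0.26 (edgeR adjusted p = 2.75e-04). It was no longer called without replicate 2, where the log2 fold change was 1.32.

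Gene 3052 showed the widest gap of the genes named. Its lowest, median and highest levels were 0, 2.99 and 39.8 CPM at 7 °C, against 0, 20.1 and 166.3 CPM at 11 °C. The deep libraries of 7 °C reached 17.2 CPM. It averaged 1.51 ± 0.27 CPM on day 20 at 7 °C and 39.99 ± 7.91 CPM at 11 °C. That 7 °C mean rests on 3, 3 and 2 counts. In all, 7 of 24 libraries of 7 °C and 4 of 24 of 11 °C held at most 3 counts of the gene. On day 69 the gene averaged 6.05 ± 4.37 CPM at 7 °C and 87.7 ± 77.4 CPM at 11 °C (SD, n = 3 each). The log2 fold change was -2.58 ± 0.35 (edgeR adjusted p = 4.85e-06). Gene 29635 had 0, 8.23 and 77.6 CPM at 7 °C, against 6.61, 24.3 and 558 CPM at 11 °C, as lowest, median and highest values. In the deep libraries its medians were 8.33 CPM at 7 °C and 15.7 CPM at 11 °C. On day 7 the shallow libraries of 11 °C held 2 counts each of this gene, at 34.5 and 72.8 CPM. The deep 11 °C library was at 9.78 CPM, below those of 7 °C at 15.56, 11.65 and 21.1 CPM. The side of its day 7 mean thus rests on the shallow libraries. On day 13 its libraries were at 18.3, 18.1 and 0 CPM at 7 °C, the last of them shallow, against 24.8, 15.7 and 558 CPM at 11 °C, where 1 library stood far above the others. Its log2 fold change was -1.90 ± 0.44 (edgeR adjusted p = 3.48e-03), and without replicate 2 it was -1.81 and no longer called.

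**Figure D2:**
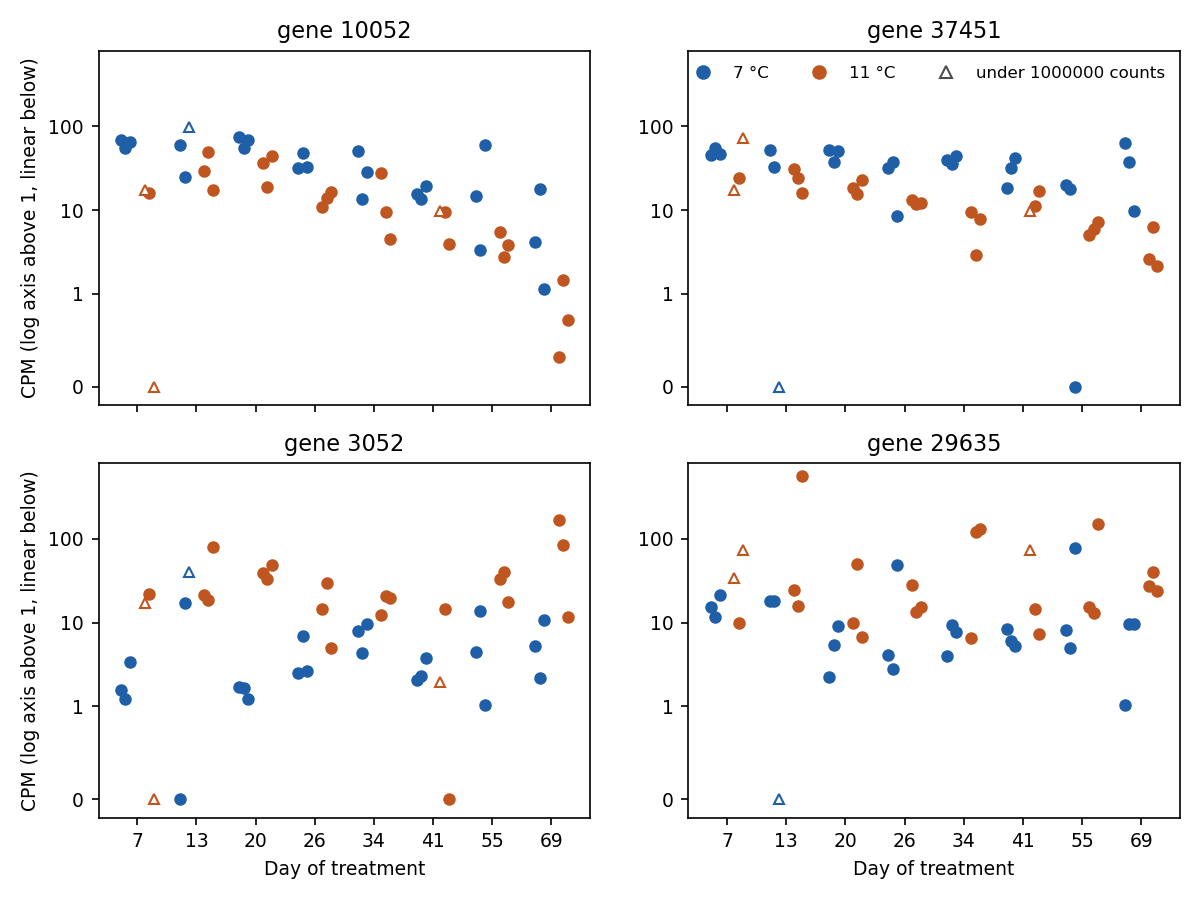
Level in CPM of the 4 genes named by rule (log axis above 1 CPM, linear below) in every library by day, 7 °C in blue to the left of 11 °C in orange; open triangles are libraries under 1000000 counts. Genes 10052 and 37451 lie higher at 7 °C, with medians of 31.9 and 37.1 CPM, and genes 3052 and 29635 lie lower, with medians of 2.99 and 8.23 CPM, and single libraries overlap in every panel.

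The study sampled the same temperatures 8 times, which allows the difference to be followed day by day. The days were read as 8 contrasts of 1 fit over the 48 libraries, each with 3 libraries against 3. Days 13, 20 and 69 each had 1 gene called of 13188 tested (0.00758%), higher at 7 °C and a different one each time, and days 7, 26, 34, 41 and 55 had none. With each day fitted alone, day 13 had 58 genes called of 9515 (41 higher and 17 lower at 7 °C), day 20 had 1 and the other days none. The counts of genes at an unadjusted p under 0.05 in edgeR were 1041, 366, 449 and 869 for the 4 days up to day 26, in order, and 759, 485, 2184 and 1405 for the 4 days from day 34 on. DESeq2 called between 2 and 15 genes on each of the days up to day 41, 1.48% of genes on day 55 and 0.819% on day 69. On day 55 edgeR called 95 genes without replicate 2, 261 without the filter on low counts and 237 with the letter as a covariate. With a component of the within-group variation as a covariate it called 862 in the deep libraries, which gave 9 without the component. The count of 0 on this day thus depends on the setting.

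Over the first 4 sampling days, up to day 26, edgeR called 40 of 11146 genes (0.359%), of which 10 had more RNA at 7 °C (0.0897%) and 30 had less (0.269%). Over the last 4, from day 34 on, it called 476 of 11156 (4.27%), with 197 higher at 7 °C (1.77%) and 279 lower (2.5%). These counts do not show that the difference grew, and the test of the growth itself called no gene. For the late minus the early difference edgeR called 0 of 13188 genes, with 591 at an unadjusted p under 0.05, and DESeq2 also called 0. Asked whether the difference varied among the 8 days in any way, edgeR called 0 of 13188 (461 at an unadjusted p under 0.05) and DESeq2 called 2. With day entered as a number, edgeR called 0 of 12726 (626 at an unadjusted p under 0.05) and DESeq2 called 3. No change of any gene's temperature difference over time was thus detected by edgeR at this depth, although without the filter on low counts the interaction called 0.583% of the genes tested.

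The direction of the difference could be read between the early and the late days, which share no library. Of the 40 genes called early, 39 were tested late, and 39 of 39 had the same sign there. The 10 higher genes had a median late log2 fold change of 1.06 and the 29 lower genes -1.01. Of the 476 genes called late, 465 were tested early, and 94.6% had the same sign. Over all 10646 genes tested in both periods the share was 70.6%. In the early days the genes called late and higher at 7 °C had a median log2 fold change of 0.45, and those called late and lower had -0.56. Without replicate 2 no gene was called in the early days and 1 in the late days.

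Each day was also read with genes chosen on the other 7 days, which keeps choice and reading in separate libraries. The choice gave between 615 genes (5.17% of those tested, without day 69) and 1241 genes (10.4%, without day 7). Leaving out the days between gave 8.49% (day 13), 8.64% (day 20), 10.4% (day 26), 8.08% (day 34), 9.84% (day 41) and 8.83% (day 55). At the day left out, their median log2 fold change was 0.58 on day 7, 0.41 on day 13, 0.53 on day 20, 0.15 on day 26, 0.51 on day 34, 0.40 on day 41, 0.72 on day 55 and 1.01 on day 69 for the genes higher at 7 °C on the other days. For the genes lower on the other days the medians were -0.42, -0.56, -0.58, -0.43, -0.69, -0.49, -0.78 and -0.99 in the same order of days. Over all genes tested the medians lay between -0.11 on day 55 and 0.17 on day 7. Every day thus lay on the side of the others, with the smallest rise on day 26 and the widest gap on day 69. Each day had its own list of genes, and that read on day 69 was the shortest. On the other days the higher genes had medians between 0.72 (list of day 13) and 0.77 (list of day 41). The lower genes had medians between -0.76 (list of day 55) and -0.88 (list of day 69). The days are thus not compared on the same genes. The share of genes with the same sign as on the other days ran between 69.7% on day 26 and 94.1% on day 69, where all tested genes gave 57.9% and 69.7%. It was 74.5% on day 7 (59.4% of all genes tested), 87.2% on day 13 (65% of all) and 91.7% on day 20 (66.8% of all). It was 88.8% on day 34 (66.8% of all), 84.4% on day 41 (61.4% of all) and 84.5% on day 55 (64.3% of all). The values of day 7 include the shallow libraries of 11 °C.

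The same reading by library shows which buds carried this. For each library the mean log2 CPM of the lower genes was subtracted from that of the higher genes, and the deep 11 °C libraries of the day were set to a mean of 0. Among deep libraries the 7 °C mean was 1.39 on day 7, 1.04 on day 13, 1.24 on day 20, 0.51 on day 26, 1.27 on day 34, 1.28 on day 41, 1.51 on day 55 and 1.93 on day 69. The 7 °C and 11 °C libraries did not overlap on 6 of the 8 days, days 26 and 34 being the exceptions. Day 7 sets 3 deep libraries of 7 °C against 1 of 11 °C, which stands at 0 by construction. Day 13 has 2 deep libraries at 7 °C, and day 41 has 2 at 11 °C. On day 26, replicate 3 at 7 °C lay at -0.50, below the day's 11 °C libraries. On day 34, replicate 1 at 11 °C lay at 1.27, among those of 7 °C. With the 4 shallow libraries included, 4 of the 8 days were without overlap, and the difference was 0.46 on day 7 and 0.85 on day 41. All 3 shallow libraries of 11 °C lay high, at 1.23 and 1.57 on day 7 and at 1.27 on day 41.

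**Figure D3:**
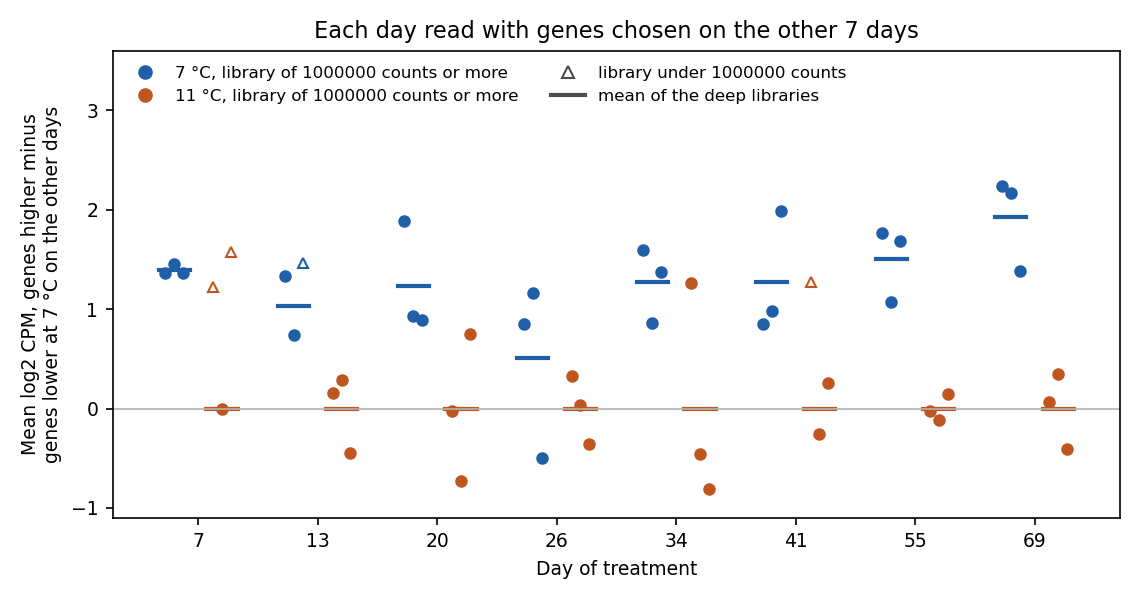
Mean log2 CPM of the genes higher at 7 °C minus that of the genes lower at 7 °C, with the genes chosen on the other 7 days, for each library by day; 7 °C in blue stands left of 11 °C in orange, bars are means of the deep libraries and open triangles are libraries under 1000000 counts. The deep 7 °C libraries average between 0.51 on day 26 and 1.93 on day 69 above the deep 11 °C libraries.

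Levels of the called genes were next set against the buds of day 0, using the deep libraries and the 2 deep libraries of day 0. The genes higher at 7 °C stood 0.64 ± 0.06 log2 units above day 0 on day 7 at 7 °C (SD, n = 3), and at -0.05 in the deep 11 °C library. On day 20 they stood at 1.02 ± 0.21 at 7 °C and 0.29 ± 0.32 at 11 °C. On day 69 they stood at 0.51 ± 0.35 at 7 °C and at -0.51 ± 0.26 at 11 °C, below their level before treatment (n = 3 each). The genes lower at 7 °C ran the other way. They stood at -0.68 ± 0.21 on day 7 at 7 °C, against 0.43 in the deep 11 °C library. On day 20 they stood at -0.90 ± 0.29 at 7 °C and -0.21 ± 0.40 at 11 °C, and on day 69 at -0.52 ± 0.17 at 7 °C and 0.40 ± 0.22 at 11 °C. At 7 °C both groups of genes left their day 0 level by day 7 and stayed on that side through day 69. At 11 °C they stayed nearer to it up to day 55 and moved toward the 7 °C side in the middle of the period. On day 69 they stood on the other side of day 0, the higher genes as far from it as at 7 °C. Both groups already stood on that other side on day 55. The higher genes were then at -0.13 ± 0.16 and the lower genes at 0.15 ± 0.05 (SD, n = 3 each). The lower genes also stood there on day 13, at 0.13 ± 0.22 (n = 3), and on day 7, in the 1 deep library of 11 °C. The higher genes were near their day 0 level on days 7 and 13, at -0.05 and -0.03. These levels describe genes chosen on the same libraries and are given without a test.

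**Figure D4:**
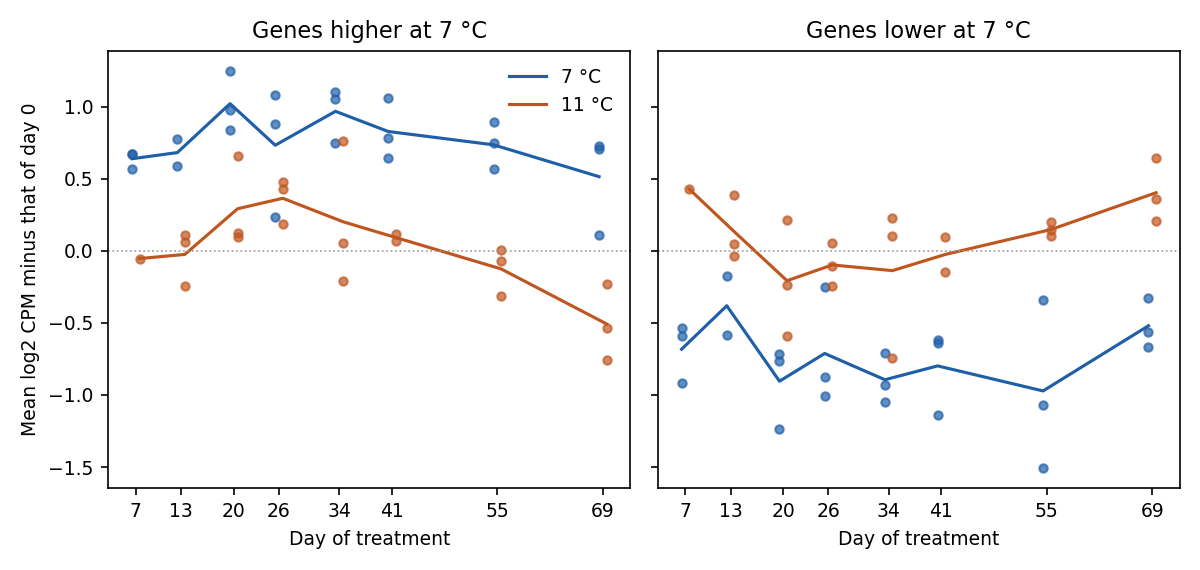
Mean log2 CPM of the 555 genes higher and the 792 genes lower at 7 °C, minus their day 0 level, by day of treatment; points are libraries of at least 1000000 counts, lines their day means, 7 °C in blue and 11 °C in orange. On day 69 the higher genes stand at 0.51 at 7 °C and -0.51 at 11 °C, and the lower genes at -0.52 at 7 °C and 0.40 at 11 °C.

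Whether these genes follow temperature in general was read in arms that share no library with the comparison. Between 2 and 22 °C on days 7 to 20, where 51.9% of 10160 genes passed (25.2% with more RNA at 2 °C and 26.6% with less), 89.8% of the 492 higher genes tested there were higher at 2 °C, with a median log2 fold change of 1.29. Of the 752 lower genes 89.4% were lower at 2 °C, with a median of -1.31. Counted as 1 share, 89.5% of 1244 called genes had the same sign in both comparisons, against 70.5% of all 10034 genes tested in both. Between 4 and 22 °C on days 34 to 55, in libraries of the Second set, 30% of 10714 genes passed (13.4% with more RNA at 4 °C and 16.6% with less). There 88.1% of 529 higher genes were higher at 4 °C (median 1.12) and 80.6% of 731 lower genes were lower (median -0.78). As 1 share, 83.7% of 1260 had the same sign, against 61.2% of all 10423 genes. Genes with more RNA at 7 °C than at 11 °C thus mostly had more RNA at 2 or 4 °C than at 22 °C. These readings do not show a further change below 7 °C. In deep libraries of days 34 to 69, relative to 11 °C, the higher genes averaged 0.86 ± 0.27 log2 units at 7 °C. At 2 °C they averaged 0.92 ± 0.27 (SD, n = 12 each). The lower genes averaged -0.90 ± 0.35 at 7 °C and -0.86 ± 0.23 at 2 °C. The 7 °C levels entered the choice of genes, so these values are a description. The 2 °C libraries of days 7 to 20 sat in lower plate columns than those of 22 °C, as 7 °C did against 11 °C. Plate position and temperature cannot be told apart there either. The 4 °C libraries of days 34 to 55 sat in higher columns than those of 22 °C. What plate position contributed was not tested.

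Read in the opposite direction, genes called between 4 and 22 °C divided 7 from 11 °C by a smaller step. Of those higher at 4 °C, 79% of 1427 were higher at 7 °C than at 11 °C, with a median log2 fold change of 0.26. Of those lower at 4 °C, 74.1% of 1597 were lower at 7 °C, with a median of -0.26. Together 76.4% of 3024 had the same sign, against 61.2% of all genes tested in both. The medians were 0.21 and -0.19 on days 7 to 26 and 0.31 and -0.33 on days 34 to 69. Leaving out 1 replicate number, in the choice of genes as well, moved the medians over 8 days to between 0.15 and 0.45 for the higher genes and between -0.41 and -0.21 for the lower genes. Per degree, the step between 7 and 11 °C was 0.065 for the genes higher at 4 °C, and that between 2 and 7 °C was 0.038. For the genes lower at 4 °C these were -0.063 and -0.061. As whole steps, those of the higher genes were 0.26 over the 4 degrees and 0.19 over the 5 degrees. Without replicate 2, where the list of genes higher at 4 °C also changed, they were 0.16 and 0.20. The larger step per degree between 7 and 11 °C for the higher genes was thus not kept without replicate 2. Both steps share the 7 °C libraries. The named genes were chosen for their difference between 7 and 11 °C, and their levels at the other constant temperatures are given as a description. Gene 37451 had a median of 62.3 CPM at 2 °C, 79 at 4 °C, 37.1 at 7 °C, 11.9 at 11 °C and 3.96 at 22 °C. Gene 3052 had 1.71 CPM at 2 °C, 0.294 at 4 °C, 2.99 at 7 °C, 20.1 at 11 °C and 49.8 at 22 °C. Gene 37451 thus had its highest median at 4 °C and not at 2 °C. For gene 3052, 12 of 24 libraries at 2 °C and 22 of 24 at 4 °C held at most 3 counts, so its levels there are not ranked. Gene 10052 had 14.8 CPM at 2 °C, 15.85 at 4 °C, 31.9 at 7 °C, 10.2 at 11 °C and 5.30 at 22 °C. Gene 29635 had 20.7 CPM at 2 °C, 3.09 at 4 °C, 8.23 at 7 °C, 24.3 at 11 °C and 16.5 at 22 °C. In the deep libraries gene 29635 had 16.3 CPM at 2 °C, 2.745 at 4 °C, 8.33 at 7 °C, 15.7 at 11 °C and 19.2 at 22 °C. The 4 °C libraries are of the Second set and those of 2, 7 and 11 °C of the First, so the 4 °C levels also differ from these in library set.

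Many genes did not lie at 7 °C where a straight line between 2 and 11 °C would put them. Of 12120 genes tested, 1269 were off that line (10.5%), 595 above it (4.91%) and 674 below it (5.56%), by edgeR with all 3 temperatures over 8 days. Of the 595 genes above, 548 stood higher at 7 °C than at both 2 and 11 °C, and of the 674 below, 609 stood lower than at both. These positions follow in part from the choice, because the genes were chosen and read in the same libraries. The share over all genes tested was not computed, so the positions are a description only. The median distance was 0.60 above the line and -0.68 below it, with median standard errors of 0.17 and 0.19. The named genes were chosen for a difference that enters this distance, so theirs is given without a test. Gene 10052 lay above the line, at 1.12 ± 0.18 (SE). Gene 37451 lay at 0.29 ± 0.20, less than 2 standard errors from the line. Gene 3052 lay at -1.0 ± 0.33 and gene 29635 at -1.53 ± 0.38, both below it. Without replicate 1 the count was 201 and without replicate 2 it was 118.

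The last comparison asks whether the 7 and 11 °C of the first 26 days could still be told apart once both sets of buds had gone to the fluctuating 7 °C. No gene was called between the arm after 7 °C and the arm after 11 °C on days 34 to 69 (0 of 11249 by edgeR, 1309 at an unadjusted p under 0.05), with 12 libraries against 12, all in the Second set. DESeq2 called 21 genes. In edgeR 50 were called without replicate 1 and 6 without the filter on low counts, so that the count of 0 depends on the setting. With a component of the within-group variation as a covariate 2269 were called, in the deep libraries, where 0 were called without it. That component was taken from the same counts and held 56.6% of their within-group variation. It lowers their spread by construction, so its count is no separate support. The genes that divided constant 7 from constant 11 °C were mostly on the opposite side here. Of 537 higher genes 31.3% were higher after 7 °C, with a median log2 fold change of -0.18, and of 726 lower genes 43.5% were lower after 7 °C, with a median of 0.05. Over all genes tested in both, 45.9% were higher after 7 °C, with a median of -0.04. When 1 replicate number was left out of both the choice of genes and the reading, the share of higher genes that were higher after 7 °C was 34.3% without replicate 1, 42.3% of 26 without replicate 2 and 25.6% without replicate 3. Of lower genes, 22.2% of 36 were higher after 7 °C without replicate 2, against 61.1% without replicate 1 and 71.2% without replicate 3, so the side of the lower genes was not stable. Gene 3052 had a lowest, median and highest level of 0, 3.27 and 27.8 CPM after 7 °C and 0.260, 4.05 and 7.31 CPM after 11 °C, close to the median of 2.99 CPM at constant 7 °C. The fluctuating and the constant libraries belong to different library sets, so that likeness was not tested.

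The difference between 7 and 11 °C in the constant arms was then set against that in the fluctuating arms over the same days, a test added after the data had been seen. It takes each difference within 1 library set. Of 12312 genes 209 were called (1.7%), with a difference more positive in the constant arms for 0.934% of genes and more negative for 0.763%. The named genes were chosen for the difference of the constant arms, which is part of this one, and are given without a test. Gene 37451 stood at 2.54 ± 0.52 log2 units and gene 10052 at 1.16 ± 0.50 (SE). Gene 3052 stood at -2.53 ± 0.74 and gene 29635 at -3.36 ± 1.0. For gene 37451 the late difference was 1.99 ± 0.43 in the constant arms and -0.54 ± 0.28 in the fluctuating arms. Without replicate 2 no gene was called, and without replicate 1 there were 808.

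**Figure D5:**
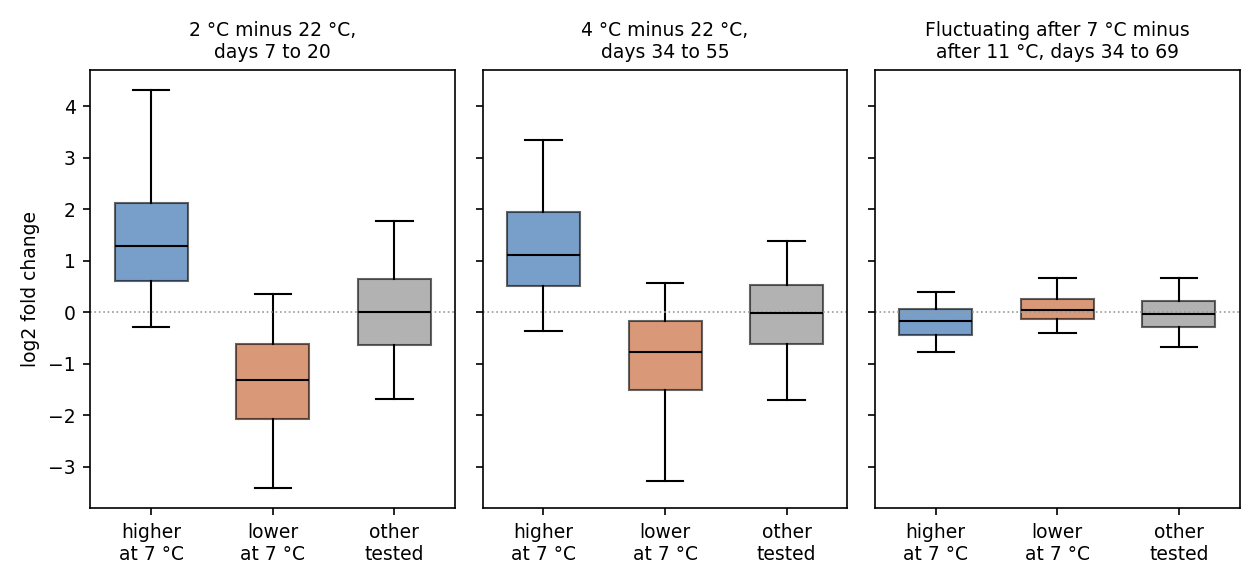
Log2 fold change of the genes higher at 7 °C, the genes lower at 7 °C and the other genes tested, in 3 comparisons whose libraries were not used to choose them; boxes span the quartiles with the median as a line, and whiskers reach the 5th and 95th percentiles. The medians of the higher and lower genes are 1.29 and -1.31 between 2 and 22 °C, 1.12 and -0.78 between 4 and 22 °C, and -0.18 and 0.05 between the fluctuating arms.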

How the data were processed

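The deposited table holds raw read counts per gene, whole numbers with different totals in each library, made with a 3′ messenger RNA kit and 85-base reads on a NextSeq500 with 95 libraries per lane, per the labels' protocols. FastQC, STAR and DESeq2 are named in the submitters' processing notes; the genome and the annotation are not given in the sources used here. A 3′ count does not grow with transcript length, and copies removed or kept as PCR duplicates are not recorded, so counting intervals would cover counting error only. All 156 columns matched 1 library name each and 0 were left unused. Groups, days and replicate numbers come from the labels.

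The test was edgeR's quasi-likelihood F test (version 4.0.16, R 4.3.3) on TMM-scaled counts after filterByExpr, with p-values adjusted by the Benjamini-Hochberg method over all genes of a fit and called at 0.05. Standard errors are the log2 fold change divided by the square root of F. Day was a factor; single days, the early and late days and their differences were contrasts of fits over the groups named. The line test set 7 °C against a weighted mean of 2 °C (weight 4 of 9) and 11 °C (weight 5 of 9). Log2 CPM levels used a prior count of 2, and a deep library has at least 1000000 counts. Named genes were taken by the rule given above, 2 in each direction. Alternatives were DESeq2 1.42.0, RLE scaling, no filter, a replicate block, deep libraries, leaving out each replicate, the first component of the within-group deviations as a covariate, the letter in library names, and, where they apply, leaving out day 7 or fitting days alone. The within-group component was computed from the same deep libraries in which it then served, so it lowers their spread by construction. The scripts were tested on simulated counts. No 2 libraries of a group held identical counts, and no pair agreed within sampling noise: the lowest chi-square per gene was 1.47 over 48 pairs. The members, the gene lists and the tests were chosen with earlier results of these data known.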

Additional observations from a re-analysis of the deposited data

Results flagged for a closer look

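The difference between 7 and 11 °C in the constant arms minus that between the arms after 7 °C and after 11 °C under fluctuation was tested itself and called 209 genes. For gene 37451 this difference was 2.54 log2 units, and it lay between 1.96 (without replicate 2) and 3.13 (without replicate 3) when 1 replicate number was left out. Gene 37451 was named for its difference between the constant arms, which is part of this contrast, so its value is a description.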

How the results depend on the processing

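Counts of calls moved with the setting, and over 8 days, where 1347 genes were called, the count was 2793 with the within-group component. The deep libraries, in which the component was fitted, gave 1805 without it. The values below for the early days and for the interaction are percentages of the genes tested, and the others are counts of genes. DESeq2 gave 2.19% early and 0.0152% for the interaction, 991 late, 3 for the trend over days, 21 between fluctuating arms, 759 for the constant minus fluctuating difference and 343 calls summed over single days (3 in edgeR). Without the filter on low counts these were 1.11%, 0.583%, 906, 13, 6, 1020 and 652, and the late minus early difference gave 10. Deep libraries gave 0.636% early, 755 late, 327 for the constant minus fluctuating difference and 39 on single days. The component gave 3.85% early, 1539 late, 1 for late minus early, 3 for the trend, 3055 off the line, 2269 between fluctuating arms and 1555 on single days. The letter gave 0.973% early, 2028 off the line and 252 on single days. Single days gave 17 with RLE scaling and 59 with each day fitted alone, and the early days 0.139% without day 7. Leaving out 1 replicate number gave 66 to 776 over 8 days, 0% to 0.486% early, 1 to 362 late, 118 to 1442 off the line, 0 to 50 between fluctuating arms, 0 to 808 for the constant minus fluctuating difference and 0 to 95 on single days. Of the genes called late it left 95.3% to 100% with the same sign early. The 100% is 1 gene of 1, without replicate 2, and is too few to read as a share. The 95.3% is 61 of 64 genes, without replicate 3, and without replicate 1 it was 96.3% of 349. Over all genes tested in both periods the shares were 62.6% without replicate 2, 64.1% without replicate 3 and 69.6% without replicate 1. Leaving out 1 replicate number moved the library differences, 7 minus 11 °C, to between -174917 and 325534 counts. The difference in the share of the 10 highest genes moved to between -0.115 and 1.99 percentage points. The difference in genes after thinning moved to between -309.5 and 199.9. In deep libraries the difference in counts was -82695, and with all libraries it was 72796. The causes were not tested.

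No clear pairing of libraries by replicate number was seen, and pairing was not tested. Same-numbered libraries of 7 and 11 °C correlated in their deviations from group means at -0.41 to 0.61, with a mean of 0.07. Of 24 pairs, 9 were over 0.1, and 9 correlated best with their own number. With the replicate block 1324 genes were called over 8 days, and 8 on single days. Depth limits day 7, where 2 of the 3 libraries at 11 °C held under 1000000 counts.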
